A study of Homo sapiens with 10 samples.

Results

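GRIA3, GNAO1, KCNN2, TMEM132B, PAX2, NAP1L3 and BEX5 are 7 genes, of the 13920 with a count in every library, that are best known from the nervous system or from development. They were picked because both SAMHD1-KO clones had less of their RNA than wild-type (WT) spheroids in experiments 15 and 16. That difference is therefore described below with no test. The 7 genes are tested only between clone A1 and WT in experiments 10 and 11, whose libraries the choice did not use. SAMHD1, a dNTP-degrading enzyme, was disrupted at exon 5 with CRISPR-Cas9 expressed from a plasmid in cells labelled T47D, a human breast cancer cell line of luminal type, and cells were grown for 4 days as spheroids in low-adherence plates. Poly(A) RNA of 10 libraries was sequenced. WT and clone A1 (each 4 libraries) were in experiments 10, 11, 15 and 16, and clone A2 (2 libraries) was in experiments 15 and 16 only. Each KO group is 1 clone, so a clone and the loss of SAMHD1 in it cannot be told apart, and clone A2 has no library beside the earlier pair. The labels do not say what separates the experiments beyond their numbers, so p-values measure the spread between these libraries.

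As background, neurons carry RNA of many genes that other cells hold low, among them receptors and ion channels for signalling at synapses. In non-neuronal cells the REST repressor, with its corepressors and chromatin enzymes, binds and silences many of them, yet cell lines of epithelial origin often keep some neuronal transcripts. GRIA3 encodes a subunit of the AMPA-type glutamate receptor, GNAO1 the alpha subunit of the G protein Go, and KCNN2 a potassium channel opened by calcium. TMEM132B is a membrane protein of a small family whose role is little known. PAX2 is a paired-box transcription factor of the developing kidney, eye and midbrain, NAP1L3 a member of the nucleosome assembly protein family of histone chaperones, and BEX5 a small protein of the family named brain expressed, X-linked.

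Promoter sequences were looked at because the 7 genes moved together. The RefSeq promoter windows for GRCh38.p14 covered 6 of the 7 genes, and GRIA3 had no window. The 250 bases upstream of the first transcription start are shown for 4 genes as examples that differ in base composition, each read 5′ to 3′ on the strand of its gene. Capitals mark the cAMP response element TGACGTCA, its variant TGACGTGA, or the CCAAT box, searched on both strands. The first pair of motifs share the letters TGACGT.
GNAO1 promoter (chr16:56191239-56191488, plus strand): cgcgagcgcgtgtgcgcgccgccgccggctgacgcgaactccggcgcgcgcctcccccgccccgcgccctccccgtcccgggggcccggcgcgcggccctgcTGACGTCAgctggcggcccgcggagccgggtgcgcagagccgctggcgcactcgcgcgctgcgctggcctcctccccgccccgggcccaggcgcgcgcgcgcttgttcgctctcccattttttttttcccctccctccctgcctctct
TMEM132B promoter (chr12:125186136-125186385, plus strand): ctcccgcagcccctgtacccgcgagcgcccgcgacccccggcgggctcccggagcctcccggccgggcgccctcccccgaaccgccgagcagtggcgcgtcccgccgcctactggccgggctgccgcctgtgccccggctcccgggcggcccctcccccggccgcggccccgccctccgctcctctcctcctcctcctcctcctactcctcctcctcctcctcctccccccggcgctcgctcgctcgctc
NAP1L3 promoter (chrX:93673579-93673828, minus strand): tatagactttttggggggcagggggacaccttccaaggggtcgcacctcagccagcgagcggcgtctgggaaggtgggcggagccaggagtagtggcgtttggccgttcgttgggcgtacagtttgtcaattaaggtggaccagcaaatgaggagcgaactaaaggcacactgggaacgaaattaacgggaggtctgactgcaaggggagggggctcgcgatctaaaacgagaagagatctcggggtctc
BEX5 promoter (chrX:102155978-102156227, minus strand): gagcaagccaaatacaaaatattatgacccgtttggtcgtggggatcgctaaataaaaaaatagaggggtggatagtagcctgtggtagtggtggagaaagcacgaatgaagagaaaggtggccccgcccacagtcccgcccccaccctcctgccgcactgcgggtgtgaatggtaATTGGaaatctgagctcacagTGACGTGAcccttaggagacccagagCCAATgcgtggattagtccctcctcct
The windows shown for GNAO1 and TMEM132B were rich in G and C (79.2% and 81.2%, with 44 and 34 CpG), above the median of 64.4% and 20 CpG over 16748 windows of 11366 measured genes. The other 2 TMEM132B windows, at later starts, were below that median (48.8% with 4 CpG and 35.2% with 0 CpG). Those of NAP1L3 (57.6%, 16 CpG) and BEX5 (52.8%, 10 CpG) were below it. GNAO1 held TGACGTCA, found in 2.38% of all windows, and BEX5 held TGACGTGA, found in 0.531%. The second BEX5 window of the table overlaps the first and holds the same TGACGTGA. Of the 10 windows of the 6 genes, 5 held CCAAT, against 32.7% of all windows. These included both overlapping BEX5 windows, which share a CCAAT site, and both later windows of TMEM132B. The windows are therefore not independent, and no excess is read from this share. None held TATAAA (6.20% of all), the estrogen response element (0.0179%) or the 2 parts of the REST site searched here, TTCAGCACC (0.215%) and GGACAGC (5.19%). Later windows of TMEM132B held a forkhead motif, TGTTTAC, in 1 of the 10 (2.20% of all windows). They also held AGATAA, bound by GATA factors, in 1 of the 10 (5.32% of all windows). A match of letters is not a bound site.

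Total counts ran from 40077369 to 51311482 per library, and mitochondrial genes held 7.79% to 8.48% of them in experiments 10 and 11 and 9.05% to 13.9% in 15 and 16, with the highest share in clone A1 of experiment 15. SAMHD1 itself was at 53.9, 55.7, 49.8 and 56.4 CPM (read counts scaled to a common library size with TMM factors) in WT of experiments 10, 11, 15 and 16. Clone A1 had 22.5 and 23.0 CPM in experiments 10 and 11 but 6.44 and 6.15 CPM in 15 and 16, and clone A2 had 23.6 and 20.2 CPM. All 6 KO libraries were below all 4 WT libraries. The labelled cell line was checked against 14 luminal epithelial markers. KRT19, TFF1 and SPDEF were not among the listed genes, and ESR1, EPCAM, CDH1 and ERBB3 averaged 0.681, 0.963, 1.23 and 1.56 CPM, each under 2 CPM. GATA3 (20.2 CPM), PGR (18.9 CPM), FOXA1 (20.2 CPM), KRT8 (5.75 CPM), KRT18 (44.8 CPM) and XBP1 (50.6 CPM) were present, and the 10 measured markers summed to 148 to 177 CPM per library. The low or unlisted markers, EPCAM, CDH1 and the estrogen receptor ESR1 among them, go against the label of a luminal line, in WT as well as in the clones. The identity of the cells was not tested further, and they are called T47D by their label only. Of 25 neuron markers 17 were listed, with a summed level of 269 to 335 CPM over the 10 libraries.

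The 7 genes followed 1 broad course over the libraries, which the plot of CPM by library shows. Its fall from later WT to the later KO libraries was fixed by the choice. Both WT libraries of experiments 15 and 16 lay below both of 10 and 11 for all but BEX5, and all later KO libraries lay below every other library for all 7. Clone A1 of experiments 10 and 11 lay above later WT for 5 of them, below it for BEX5, and on both sides of it for KCNN2. As a share of the level in WT of experiments 10 and 11, clone A2 held a median of 11.4%, from 4.17% for TMEM132B to 25.3% for BEX5. In bulk RNA, fewer cells with a transcript and less of it per cell cannot be told apart.

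**Figure D1:**
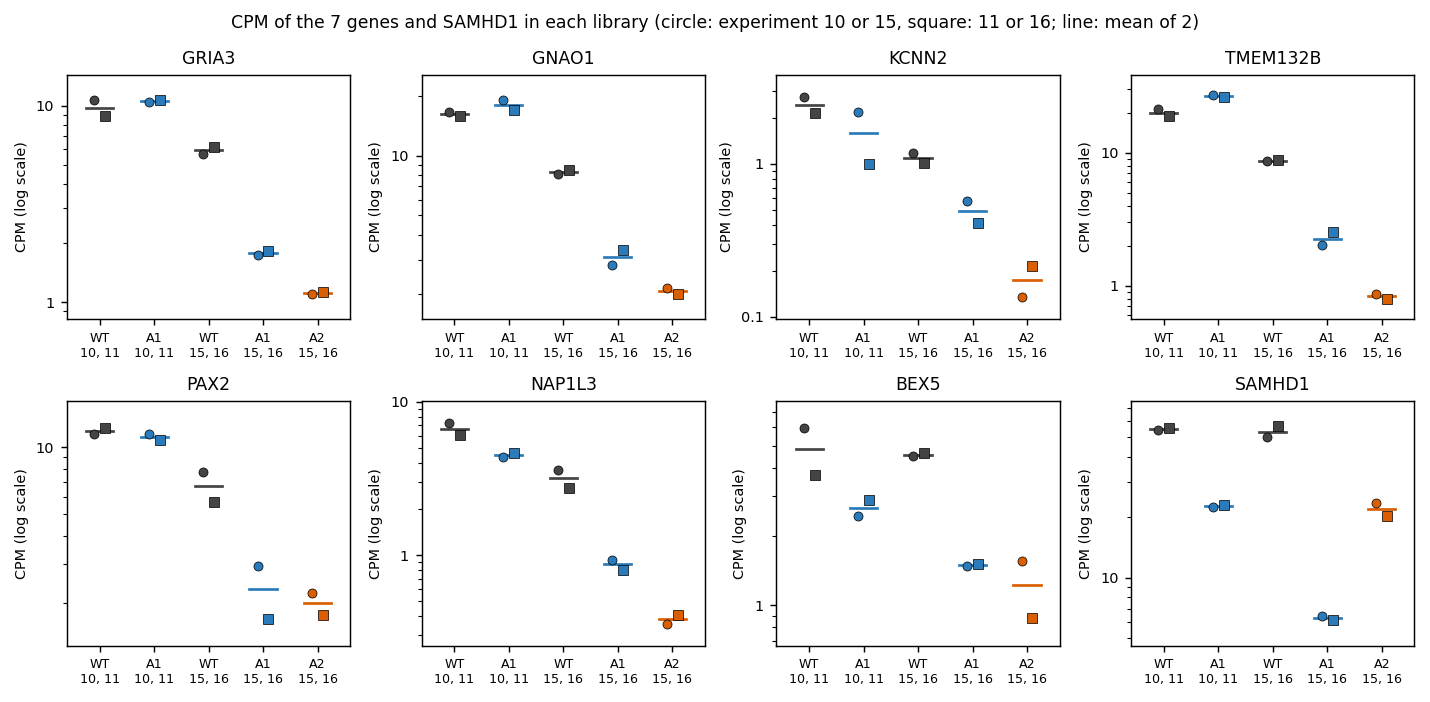
CPM (log axis) of the 7 genes and of SAMHD1 in each library, with WT in grey, clone A1 in blue and clone A2 in orange, circles for experiments 10 and 15, squares for 11 and 16, and a line at the mean of 2 libraries. All 4 KO libraries of experiments 15 and 16 lie below every other library for each of the 7 genes, and SAMHD1 is lowest in clone A1 of experiments 15 and 16 at 6.44 and 6.15 CPM.

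GRIA3 (NCBI gene 2892, chromosome X, 123184278 to 123490915 in the RefSeq gene table for GRCh38) was at 10.7 and 8.83 CPM in WT and 10.4 and 10.7 CPM in clone A1 of experiments 10 and 11. In experiments 15 and 16 it was at 5.67 and 6.18 CPM in WT, 1.74 and 1.81 CPM in clone A1, and 1.10 and 1.13 CPM in clone A2. The earlier groups overlapped each other, and the later WT, clone A1 and clone A2 libraries formed 3 steps with no overlap. The log2 fold change against WT in experiments 15 and 16 was −1.74 (SE 0.17) in clone A1 and −2.41 (SE 0.18) in clone A2.

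GNAO1 (NCBI gene 2775, chromosome 16, 56191489 to 56357444) had the same course. WT was at 16.7 and 15.8 CPM and clone A1 at 19.1 and 17.0 CPM in experiments 10 and 11. In experiments 15 and 16 the levels were 8.12 and 8.52 CPM in WT, 2.81 and 3.35 CPM in clone A1, and 2.15 and 2.01 CPM in clone A2. Both earlier clone A1 libraries were above both WT libraries of their pair, and the later groups again formed 3 steps. The later fold changes against WT were −1.43 (SE 0.15) and −2.00 (SE 0.15) on the log2 scale in clones A1 and A2.

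KCNN2 (NCBI gene 3781, chromosome 5, 114055978 to 114496496) had the fewest counts, down to 6 in clone A2 of experiment 15. It was at 2.75 and 2.14 CPM in WT and at 2.20 and 1.00 CPM in clone A1 of experiments 10 and 11. Later levels were 1.18 and 1.01 CPM in WT, 0.571 and 0.413 CPM in clone A1, and 0.135 and 0.215 CPM in clone A2. The clone A1 library of experiment 11 lay just under the later WT libraries, so the earlier and later levels overlapped. The later fold changes, −1.15 (SE 0.34) in clone A1 and −2.61 (SE 0.40) in clone A2, carried the widest errors of the 7.

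TMEM132B (NCBI gene 114795, chromosome 12, 125186386 to 125662377) spanned the widest range of levels. WT was at 21.2 and 18.9 CPM and clone A1 at 27.1 and 26.3 CPM in experiments 10 and 11. It was at 8.67 and 8.79 CPM in later WT, 2.01 and 2.52 CPM in later clone A1, and 0.875 and 0.800 CPM in clone A2. Clone A1 was the highest group in the earlier pair and held only 8.49% of that level in the later one. Against later WT the log2 fold change was −1.95 (SE 0.16) in clone A1 and −3.38 (SE 0.19) in clone A2.

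PAX2 (NCBI gene 5076, chromosome 10, 100735396 to 100829944) was at 11.5 and 12.2 CPM in WT and 11.5 and 10.8 CPM in clone A1 of the earlier pair. In experiments 15 and 16 WT had 7.74 and 5.69 CPM, clone A1 2.92 and 1.70 CPM, and clone A2 2.22 and 1.76 CPM. In each later group the library of experiment 16 was the lower one, and the 2 clones overlapped. Later fold changes against WT were −1.53 (SE 0.23) in clone A1 and −1.76 (SE 0.23) in clone A2 (log2).

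NAP1L3 (NCBI gene 4675, chromosome X, 93670930 to 93673578) already stood lower in clone A1 of the earlier pair. WT was at 7.27 and 6.10 CPM and clone A1 at 4.35 and 4.63 CPM there. The later levels were 3.58 and 2.75 CPM in WT, 0.937 and 0.803 CPM in clone A1, and 0.359 and 0.410 CPM in clone A2. The 5 groups formed 5 steps with no overlap between any of them. The later log2 fold changes were −1.85 (SE 0.25) in clone A1 and −3.02 (SE 0.28) in clone A2.

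BEX5 (NCBI gene 340542, chromosome X, 102153712 to 102155977) differed from the other 6 in its WT levels. These were 5.94 and 3.73 CPM in experiments 10 and 11 and 4.49 and 4.62 CPM in 15 and 16, so both WT pairs overlapped. Clone A1 was at 2.45 and 2.89 CPM in the earlier pair and at 1.48 and 1.51 CPM in the later one, and clone A2 at 1.57 and 0.879 CPM. The clones overlapped in experiments 15 and 16, with log2 fold changes against WT of −1.60 (SE 0.23) and −1.91 (SE 0.23). How reads matching several BEX genes were assigned is not given in the sources used here.

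Set side by side, the later fold changes of the 7 genes ran from −1.95 to −1.15 in clone A1, with a median of −1.60, and from −3.38 to −1.76 in clone A2, with a median of −2.41. Over all 13920 genes the medians were 0.0026 and 0.0043. Both comparisons share the WT libraries. In clone A1 13.2% of all genes passed the test (edgeR's quasi-likelihood test, Benjamini-Hochberg adjusted p under 0.05), 6.74% as lower and 6.44% as higher, and in clone A2 21.2% did, 11.4% as lower and 9.75% as higher. All 4 KO libraries were below both WT libraries in 17.4% of genes, and a log2 fold change below −1 in both clones was found in 54 genes (0.388%), the 7 among them. These shares are background only, because the 7 genes were chosen on this difference.

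In experiments 10 and 11, which the choice did not use, none of the 7 genes passed the test between clone A1 and WT, where 0.0862% of all genes passed (12 genes, all lower, SAMHD1 among them at −1.27, SE 0.09, edgeR adjusted p = 1.69e-05). The 7 fold changes had a median of −0.089 and no common direction. BEX5 was at −0.86 (SE 0.23, edgeR adjusted p = 0.432), KCNN2 at −0.61 (SE 0.32, edgeR adjusted p = 0.750) and NAP1L3 at −0.57 (SE 0.16, edgeR adjusted p = 0.472). PAX2 was at −0.09 (SE 0.12, edgeR adjusted p = 0.864) and GRIA3 at 0.11 (SE 0.13, edgeR adjusted p = 0.840). GNAO1 was at 0.15 (SE 0.11, edgeR adjusted p = 0.776) and TMEM132B at 0.41 (SE 0.10, edgeR adjusted p = 0.378). Both clone A1 libraries were below both WT libraries for 3 of the 7 genes (19.4% of all genes) and above them for 2 (19.0% of all genes). At an unadjusted p under 0.05 there were 963 genes (6.92%), with TMEM132B, NAP1L3 and BEX5 among them, and DESeq2 called 23 genes and none of the 7.

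In a fit with a replicate block by experiment, TMEM132B (0.41, edgeR adjusted p = 0.00425), NAP1L3 (−0.57, edgeR adjusted p = 0.0226) and BEX5 (−0.83, edgeR adjusted p = 0.00394) passed in this comparison, among 229 genes (1.65%). Within these 2 experiments, same-numbered libraries correlated at only 0.0844 in their deviations from the group mean. With no block, TMEM132B passed without the WT library of experiment 10 (edgeR adjusted p = 3.64e-05) and BEX5 without that of experiment 11 (edgeR adjusted p = 0.00221), where 3144 and 76 genes passed. With 1 library left out, KCNN2 ran from −1.29 (without clone A1 of experiment 10) to −0.15 (without clone A1 of experiment 11), and BEX5 from −1.15 (without WT of experiment 11) to −0.48 (without WT of experiment 10).

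**Figure D2:**
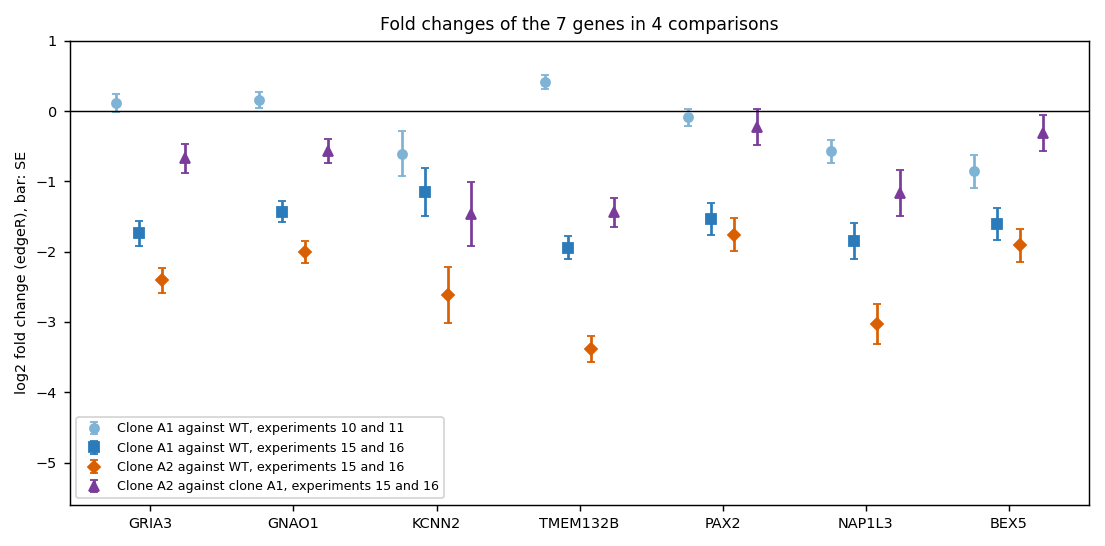
Log2 fold change (vertical axis, with SE bars) of the 7 genes in 4 comparisons, clone A1 against WT in experiments 10 and 11 (pale circles) and 15 and 16 (blue squares), clone A2 against WT (orange diamonds) and clone A2 against clone A1 (purple triangles). The earlier values lie on both sides of 0, from −0.86 to 0.41, and the later values against WT lie between −3.38 and −1.15.

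Between the experiment pairs, both WT libraries of 15 and 16 lay below both of 10 and 11 for 6 of the 7 genes (26.8% of all genes), and for BEX5 they overlapped. The WT libraries used here also served to choose the genes, so the shift is given with no test. WT of experiments 15 and 16 held a median of 51.2% of the earlier WT level, from 43.5% for TMEM132B to 94.1% for BEX5. On the log2 scale, in 1 fit of all 10 libraries, the shift was −1.20 (SE 0.11) for TMEM132B, −1.16 (SE 0.32) for KCNN2, −1.08 (SE 0.18) for NAP1L3 and −0.96 (SE 0.11) for GNAO1. PAX2 shifted by −0.83 (SE 0.18), GRIA3 by −0.72 (SE 0.13) and BEX5 by −0.08 (SE 0.23). The median over all genes was 0.0025.

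In clone A1 the later values were again among those that chose the genes. Its later libraries held a median of 19.4% of its earlier level, from 8.49% for TMEM132B to 56.2% for BEX5, with log2 shifts of −3.56 (SE 0.13) for TMEM132B, −2.57 (SE 0.15) for GRIA3 and −2.55 (SE 0.13) for GNAO1. SAMHD1 shifted by −1.85 (SE 0.10) in the same clone and by −0.04 (SE 0.09) in WT. All 4 earlier libraries were above both later WT libraries for 5 of the 7 genes, an order held by 19.9% of all genes, with KCNN2 and BEX5 as the exceptions. All 4 were above all 4 later KO libraries for each of the 7, an order held by 20.9% of all genes. The full order, earlier libraries above later WT above the later KO libraries, was held by the same 5 and by 7.36% of all genes. The later KO part of these orders was fixed by the choice, so nothing is read from the shares. The mitochondrial share also differed between the pairs without overlap, and its part in the shifts of WT and clone A1 was not tested. The experiment pair and whatever else changed with it cannot be told apart.

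Clone A2 was set beside clone A1 in experiments 15 and 16 as a description, with no test, because the values of both clones chose the 7 genes. Both clone A2 libraries were below both clone A1 libraries for GRIA3, GNAO1, KCNN2, TMEM132B and NAP1L3 (5 of the 7, an order held by 24.3% of all genes), and the clones overlapped for PAX2 and BEX5. The log2 difference, A2 minus A1, was −1.46 (SE 0.45) for KCNN2, −1.44 (SE 0.21) for TMEM132B and −1.17 (SE 0.33) for NAP1L3. It was −0.67 (SE 0.21) for GRIA3, −0.57 (SE 0.17) for GNAO1, −0.31 (SE 0.26) for BEX5 and −0.23 (SE 0.25) for PAX2. Over all genes 6.16% passed the test between the clones, 4.16% as lower and 2.0% as higher in clone A2.

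SAMHD1 went the other way between the clones, at 6.44 and 6.15 CPM in clone A1 and 23.6 and 20.2 CPM in clone A2. Clone A1 of experiments 10 and 11 had a SAMHD1 level like that of clone A2 (22.5 and 23.0 CPM), and held 55.2% to 133% of the WT level of the 7 genes, with a median of 94.0%. Clone A2 held 9.59% to 29.6% of the WT level of its own pair, with a median of 18.8%. These groups differ in both clone and experiment pair, and the low levels in clone A2 were part of the choice of the genes. The SAMHD1 values are of RNA, not protein, and their part in the levels of the 7 genes was not tested.

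Relatives of the 7 genes were called in both directions. As background for the counts that follow, 6.74% of all genes were called lower and 6.44% higher in clone A1 of experiments 15 and 16, and 11.4% lower and 9.75% higher in clone A2. Among the other 27 measured genes of ionotropic glutamate receptors and their partners, 2 were called higher and 1 lower in clone A1 of experiments 15 and 16, and 3 higher and 4 lower in clone A2. GRIA4, another AMPA receptor subunit, rose in both, by 1.04 in clone A1 (SE 0.24, edgeR adjusted p = 0.0109) and by 1.43 in clone A2 (SE 0.24, edgeR adjusted p = 4.7e-04), from 1.07 CPM in WT to 2.24 and 2.95 CPM. It thus went opposite to GRIA3, at a mean of 0.275 CPM in earlier WT. GRIP2, a scaffold that binds AMPA receptors, fell in both (−0.64 and −0.83). CACNG6, a calcium channel gamma subunit, rose in clone A2 (0.96).

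Among the other 41 measured genes of heterotrimeric G proteins and their regulators, 1 was higher and 3 lower in clone A1, and 3 higher and 6 lower in clone A2. GNG4, a gamma subunit, fell in both (−0.61 and −0.58), and GNB3, a beta subunit, in clone A2 (−0.57). RGS4 rose in clone A2 (1.32) and RGS3 in clone A1 (0.64), both regulators that end G protein signals. The close relatives of GNAO1, picked by gene name after their values were seen, stayed nearer to WT. GNAI1 and GNAI3 were not called, and GNAZ fell in clone A2 (−0.50) as did GNAI2 (−0.20).

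Potassium channel genes moved both ways, with 6 higher and 6 lower of the other 48 in clone A1 and 10 higher and 5 lower in clone A2. KCND3 and KCND1, pore subunits of A-type channels, fell in both clones (KCND3 at −1.17 and −1.64, KCND1 at −0.80 and −1.32). KCNH2, a channel of the cardiac rhythm, rose in both (0.91 and 0.55). KCNN3, the near relative of KCNN2, rose in clone A2 (1.34, edgeR adjusted p = 0.00438) from 0.634 to 1.62 CPM, and its level in clone A1 was 0.675 CPM.

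TMEM132A and TMEM132E, the other 2 measured TMEM132 genes, were not called in any comparison. Of the other 23 genes of the PAX, EYA and DACH network, 3 rose and 3 fell in clone A1, and 5 rose and 2 fell in clone A2. PAX1 and PAX7, paired-box factors of the embryonic axis, fell in clone A1 (−1.06 and −0.85), PAX1 also in clone A2 (−0.62), while DACH1, a nuclear cofactor of that network, rose in both clones (0.57 and 0.53). LHX1, which acts with PAX2 in the developing kidney, rose in clone A2 (0.40). Of the other 6 nucleosome assembly genes NAP1L1 fell in both clones (−0.23 and −0.45) and TSPYL4 rose in clone A2 (0.51). Of the other 9 BEX and TCEAL genes BEX1 fell in clone A1 (−0.36), and TCEAL1 and TCEAL8 fell in clone A2 (−0.39 and −0.20). BEX2, BEX3 and BEX4 were not called. In experiments 10 and 11 none of these 7 lists held a called gene, with 0.0862% of all genes called there.

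**Figure D3:**
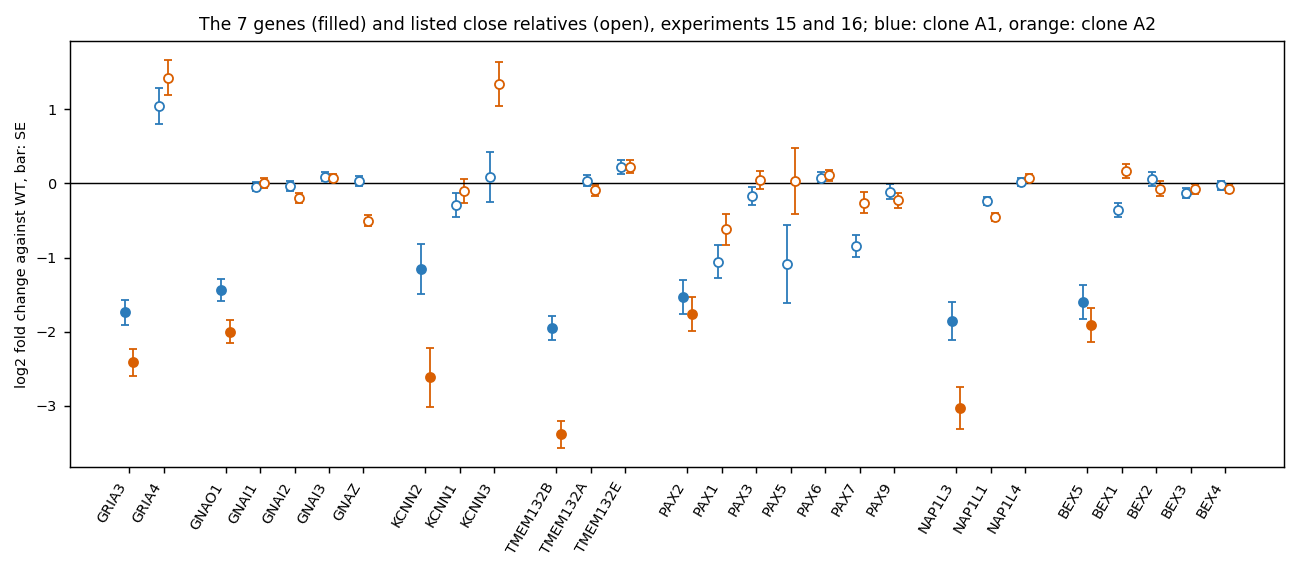
Log2 fold change against WT in experiments 15 and 16 (vertical axis, with SE bars) for the 7 genes (filled) and measured relatives (open). Relatives share a gene name stem, and for GNAO1 only GNAI1, GNAI2, GNAI3 and GNAZ are drawn. Clone A1 is in blue and clone A2 in orange. GRIA4 stands above 0 in both clones (1.04 in clone A1 and 1.43 in clone A2), and KCNN3 in clone A2 (1.34). PAX1 (−1.06), PAX5 (−1.08, SE 0.53) and PAX7 (−0.85) stand below 0 in clone A1, and PAX1 (−0.62) also in clone A2. Most other relatives lie near 0.

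Markers of neurons were likewise called in both directions. Of the 17 measured neuron markers, 1 rose and 1 fell in clone A1 and 4 rose and 2 fell in clone A2 of experiments 15 and 16, and the summed level was 282 to 289 CPM in WT, 269 to 273 CPM in clone A1 and 326 to 335 CPM in clone A2. NEFM, a neurofilament subunit, fell in clone A1 (−0.59) and rose in clone A2 (0.77), NEFL, its partner, rose in clone A2 (0.60), and TUBB3, a neuronal tubulin, fell there (−0.61). GAD1, which makes GABA, rose in both clones (0.51 and 0.56). Of 10 measured neuroendocrine markers, 2 rose in clone A1, and 1 rose and 1 fell in clone A2. ENO2, a neuronal enolase, rose in both (0.78 and 0.48), INSM1, a neuroendocrine transcription factor, in clone A1 (0.63), and SYP, of synaptic vesicles, fell in clone A2 (−0.41). In experiments 10 and 11 no marker of either list was called.

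REST was not called in any comparison, at 43.9 CPM in WT, 42.8 CPM in clone A1 and 44.0 CPM in clone A2 of experiments 15 and 16. Of its 18 listed genes with partners, 2 rose and 2 fell in clone A1 and 2 rose and 3 fell in clone A2. RCOR3, a corepressor, fell in both (−0.25 and −0.40), and HMG20B, of the same complex, in clone A2 (−0.32). EHMT1, a histone methyltransferase, rose in both clones (0.20 and 0.38), as did CTDSP1, a phosphatase (0.29 and 0.24). Luminal markers summed to 167 to 169 CPM in WT, 173 CPM in clone A1 and 148 to 149 CPM in clone A2, with 2 rising and 2 falling in clone A1 and 1 rising and 2 falling in clone A2. KRT8, a keratin, was the 1 luminal marker called in experiments 10 and 11, lower in clone A1 (−0.94). Of the 3 measured of 12 leukocyte markers the sum was at most 2.38 CPM in any library, and 1 (CD14) was called, lower in clone A1. Fibroblast markers, 4 of 10 measured, summed to 54.2 to 59.3 CPM in WT, 44.1 to 45.1 CPM in clone A1 and 46.1 to 46.8 CPM in clone A2, and to 67.1 to 88.1 CPM in earlier WT. ACTA2 made up most of that sum, and ACTA2 and COL3A1 were the 2 called lower in clone A1, COL3A1 the 1 called in clone A2. The part of these markers in the levels of the 7 genes was not tested.

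Outside the 7, the genes with a course over the 10 libraries most like their mean were COL3A1, BNC1, ADAMTS7, PID1 and SH2D3A. Likeness was the root mean square difference in log2 CPM after each gene was centred on its own mean, among 12879 genes with at least 1 CPM on average. COL3A1, a fibrillar collagen and the nearest at 0.194, was at 16.6 CPM in earlier WT, 12.4 CPM in earlier clone A1, 9.11 CPM in later WT, 2.87 CPM in later clone A1 and 2.02 CPM in clone A2. BNC1, a zinc finger protein, followed at 0.360, ADAMTS7, a secreted protease, at 0.372, PID1 at 0.377 and SH2D3A, an adaptor protein, at 0.393. None of the 5 belongs to the families of the 7 genes. Within the 7, GRIA3 lay nearest to their mean course (0.145), and TMEM132B (0.652) and BEX5 (0.699) lay farthest from it. GRIA3 and GNAO1 were the nearest pair, at 0.154 from each other.

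Gene by gene, with the 7 left out of the search, COL3A1 was the nearest to GRIA3 (0.246) and to KCNN2 (0.375), and BNC1 was the nearest to GNAO1 (0.230). PAX2 was nearest to SH2D3A (0.277) and NAP1L3 to PID1 (0.311). The nearest to TMEM132B was GHR, the growth hormone receptor (0.408), at 7.85 CPM in later WT, 1.34 CPM in clone A1 and 0.337 CPM in clone A2. For BEX5 it was SH3BGR (0.309), which was likewise lower in clone A1 already in the earlier pair, at 8.48 CPM against 20.2 CPM in WT. The libraries share their depth and preparation across genes, so likeness is a description.

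The 7 genes lay on 5 chromosomes, 3 of them on the X chromosome, which held 3.60% of the genes with a position. The 497 measured X genes other than these 3 had a median log2 fold change against later WT of −0.01 in clone A1 and −0.01 in clone A2. Of these genes 27 were called lower and 21 higher in clone A1, and 53 lower and 22 higher in clone A2. Genes starting within 5 Mb were taken as neighbours. Around GRIA3 (29 neighbours), GNAO1 (46), KCNN2 (30), TMEM132B (72) and BEX5 (54) their medians lay between −0.04 and 0.05 in clone A1 and between −0.06 and 0.03 in clone A2.

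The surroundings of PAX2 were different. Its 104 neighbours had a median of −0.23 in clone A1 and −0.29 in clone A2, with 41 called lower and 1 higher in clone A1 and 51 lower and 3 higher in clone A2, and a median of −0.05 in clone A1 of experiments 10 and 11. PAX2 itself, at −1.53 and −1.76, was lower than each of them in both comparisons. NAP1L3 had 2 measured neighbours, with medians of −0.45 and −0.79 in clones A1 and A2, both called lower in clone A2 and neither in clone A1. For none of the 7 genes did a neighbour fall further than the gene itself against later WT. The 7 genes were chosen as lower in these same comparisons, so nothing is read from their place below their neighbours. Gene copy number was not analysed here, and its part in these values was not tested.

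**Figure D4:**
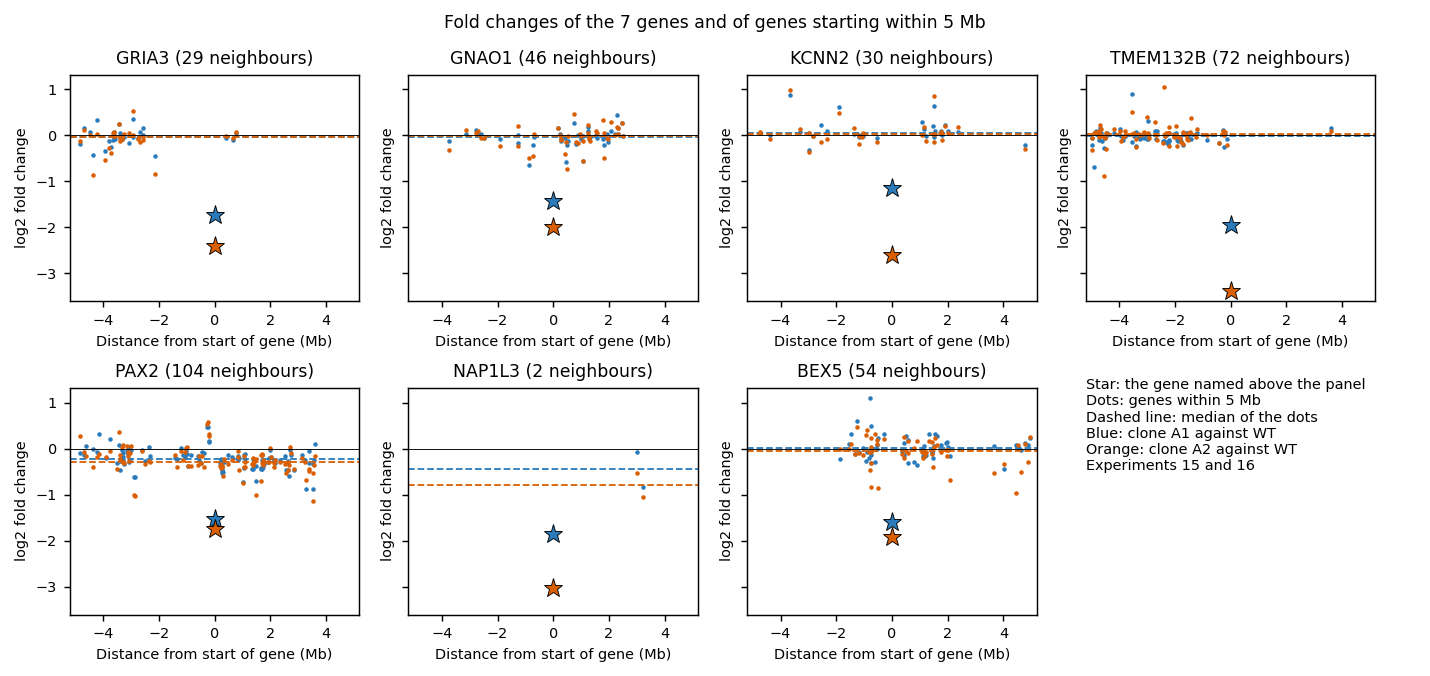
Log2 fold change against WT in experiments 15 and 16 (vertical axis) of each of the 7 genes (stars) and of genes starting within 5 Mb (dots, by distance in Mb on the horizontal axis), with clone A1 in blue, clone A2 in orange and dashed lines at the medians of the dots. The dots around PAX2 have medians of −0.23 and −0.29, and those around the other genes with at least 29 neighbours have medians near 0. Every star lies below all dots of its panel in its clone, an order that the choice of the genes favoured.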

How the data were processed

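The authors made the deposited read counts, 1 whole number per library and NCBI gene, from stranded mRNA libraries with HISAT2 on GRCh38 and the NCBI annotation, with genes that had a count of 0 removed. The submitters' notes also name StringTie. The counting program, its strand setting and how shared reads were assigned are not given in the sources used here. Of 13920 genes, 13885 matched the RefSeq gene table and 35 were kept by identifier alone.

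All tests used edgeR 4.0.16 in R 4.3.3 (TMM, robust quasi-likelihood test, Benjamini-Hochberg over all genes, threshold 0.05). Clone A1 against WT in experiments 10 and 11 was 1 fit of 4 libraries, and experiments 15 and 16 were 1 fit of 6 libraries in 3 groups. Levels are CPM with TMM factors, and likeness used log2 CPM with a prior count of 2. SE are those of the fitted log2 fold changes. The 7 genes and the gene lists were chosen with earlier results of these data known. Named genes are the 7, SAMHD1, the nearest courses, and from each list up to 4 called genes by fold change. Some genes of the lists are not reported here. Other relatives were named after their values were seen. The calculations were tested on simulated data.

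The labels give different groups the same experiment numbers, but no comparison held more than 2 such pairs, so the main fits had no block. Although a test of the 7 genes between the clones was planned, none is given, since the values of both clones chose them. Alternatives were DESeq2 1.42.0, limma-trend (limma 3.58.1), RLE size factors, filters on low counts, the experiment number as a replicate block, 1 fit of 5 groups and each library left out. Columns of no sample of this series numbered 0. Totals of 40077369 to 51311482 counts limit precision most for KCNN2, with as few as 6 counts.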

Additional observations from a re-analysis of the deposited data

Results flagged for a closer look

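GNAO1 differed in direction between the experiment pairs, since both clone A1 libraries were above both WT libraries in experiments 10 and 11 (log2 fold change 0.15) and below them in 15 and 16 (−1.43). TMEM132B did the same, at 0.41 in the earlier pair and −1.95 in the later one. In the main fit neither earlier value was called (edgeR adjusted p = 0.776 for GNAO1 and 0.378 for TMEM132B). With the replicate block TMEM132B passed (edgeR adjusted p = 0.00425) and GNAO1 did not (edgeR adjusted p = 0.562). Both earlier clone A1 libraries were above both WT libraries in 19.0% of all genes. The later direction was fixed by the choice, so the difference between the pairs was not tested for either gene.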

How the results depend on the processing

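The count of genes called between clone A1 and WT in experiments 10 and 11 went from 12 to 23 with DESeq2, to 27 in 1 fit of 5 groups, to 229 with the replicate block, and to between 19 and 3144 with 1 library left out (3144 without WT of experiment 10, 76 without WT of experiment 11, 37 without clone A1 of experiment 11). In experiments 15 and 16 the count for clone A1 against WT went from 1834 to 1147 in 1 fit of 5 groups, 3237 with the block, and 920 to 1847 with 1 library left out (920 without WT of experiment 15, 1128 without WT of experiment 16, 1093 without clone A1 of experiment 15). For clone A2 against WT it went from 2948 to 4511 with the block and 1768 to 3205 with 1 library left out (1841 without WT of experiment 15, 1768 without clone A2 of experiment 16). For clone A2 against clone A1 it went from 858 to 1947 with the block and 497 to 932 with 1 library left out (497 without clone A1 of experiment 15, 514 and 557 without clone A2 of experiments 15 and 16). The pairing behind the block was weak within each comparison, and the calls it changed for the 7 genes are given beside them. For WT and clone A1, same-numbered libraries had correlations of 0.468 to 0.526 in deviations from the group mean over all experiments, but of 0.0844 (experiments 10 and 11) and 0.134 (15 and 16) once the mean within each experiment pair was removed, and clone A2 had 0.00803 (experiment 15) and 0.0909 (experiment 16) beside clone A1, and 0.0208 and 0.159 beside WT. Signs turned for GRIA3 in experiments 10 and 11 without WT of experiment 11 (−0.022, edgeR adjusted p = 0.994, range −0.022 to 0.26 over libraries left out), and between the clones for PAX2 without clone A1 of experiment 15 (0.22, range −0.57 to 0.22) and BEX5 without clone A2 of experiment 16 (0.063, range −0.77 to 0.063). The first was not called, and the others were not tested. The cause was not tested. The medians of the 7 genes in the 4 comparisons moved by less than the spread between libraries in every alternative run. A group left with 1 library was assumed to vary like the others.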
